A study of Mus musculus with 7 samples.

Results

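The distal part of the chromosome 8 congenic segment was examined gene by gene in mouse pancreatic islets. Its members were all named genes of the array annotation that start between 77.8 and 103.9 Mb on chromosome 8, apart from 9 probe sets of a few immediate-early, metallothionein, mitochondrial and other genes that were left out by name. This gave 220 genes of the 25793 gene symbols on the array, each represented by its probe set of highest mean. Islets of 2 mouse strains were compared. NOD-Rag1 mice, NOD.129S7(B6)-Rag1tm1Mom/J, carry a null allele of Rag1, have no mature T or B cells and do not develop insulitis. NOD_Idd22 mice, NOD.ALRc8(D8Mit293-D8Mit137), are NOD mice with intact Rag1 that carry the ALR chromosome 8 segment between these markers. There were 3 NOD-Rag1 pools and 4 NOD_Idd22 pools, each of 200 to 250 islets from 2 mice of 10 to 12 weeks of age. Rag1 state and the congenic segment differ between the same groups, so their parts in a difference cannot be told apart, and a bulk sample cannot tell a change in the number of cells of a type from a change in RNA per cell.

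The NOD mouse develops autoimmune diabetes after leukocytes infiltrate its islets, and the ALR strain, related to it, resists diabetes and the free radical damage caused by alloxan. The distal segment holds a chemokine cluster, Ccl22, Cx3cl1 and Ccl17, whose products draw leukocytes through the receptors CCR4 and CX3CR1. It also holds adhesion G protein-coupled receptors of leukocytes, cytokine and cytokine receptor genes, enzymes of amino acid metabolism and genes of general cell upkeep. Expression was measured on Affymetrix Mouse Gene 2.0 ST arrays, and every value below is a log2 expression level after RMA, the method that corrects background, normalizes arrays and summarizes probes. A log2 fold change is NOD_Idd22 minus NOD-Rag1, so a positive value is higher in NOD_Idd22.

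The arrays differed before any gene was considered. By their lower quartile they fell into 2 sets, NOD-Rag1 replicates 2 and 3 with NOD_Idd22 replicate 1 at 2.49 to 2.5 and the other 4 pools at 2.64 to 2.68, and differences within each set are given beside the main genes without a test. Each such difference rests on a single pool of one strain, NOD_Idd22 replicate 1 in the first set and NOD-Rag1 replicate 1 in the second. NOD-Rag1 replicate 1 had an Xist level of 2.56 against 9.69 to 10.28 in the other pools and a Ddx3y level of 6.25 against 1.99 to 2.08, so its sex-linked RNA was that of males and theirs that of females. The difference within the second set therefore also sets sex-linked RNA of males against that of females. Markers of other cells differed too. The summed level of 8 T cell markers was 7.63 to 8.63 in NOD-Rag1 and 9.65 to 11.25 in NOD_Idd22, with all 8 higher past the threshold used below. For 6 B cell markers the sums were 6.42 to 6.79 and 11.32 to 12.77 (6 of 6 higher), for 7 macrophage and dendritic cell markers 9.41 to 10.06 and 9.16 to 11.36 (2 of 7), for 8 endothelial markers 8.48 to 9.71 and 10.17 to 10.95 (7 of 8), and for 10 acinar markers 8.67 to 12.17 and 12.70 to 14.76 (10 of 10). The 8 beta cell markers summed to 13.25 to 13.59 and 13.13 to 13.89, with 0 past the threshold.

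The segment as a whole lay close to the rest of the array. No member passed an adjusted p of 0.05 (limma, Benjamini-Hochberg over 34351 probe sets), where 0.151% of all genes did, and the smallest adjusted p among the members was 0.161, for Ccl22. At an unadjusted p under 0.05 there were 30 members, 13.6%, against 10.4% of all genes, with 13 above 0 (5.91%, against 5.72%) and 17 below (7.73%, against 4.7%). The study's threshold, a log2 fold change above 0.5 in size together with an unadjusted p of at most 0.05, was passed by 18 members, 8.18%, against 6.11% of all genes. Of these, 11 were higher in NOD_Idd22 (5.0% of members, against 3.94% of all genes) and 7 were lower (3.18%, against 2.18%). With each array centred on its median, 22 passed, 8 higher and 14 lower. That centring also moved the median log2 fold change of all probe sets from 0.0216 to -0.0984. Without single pools 9 (NOD-Rag1 replicate 2 left out) to 26 (NOD_Idd22 replicate 1 left out) passed. The share of all genes past the threshold is not given for these settings, so their counts are not read as particular to the segment. The 304 genes in the rest of the congenic segment had 26 past the threshold (8.55%), 10 higher and 16 lower, and 663 chromosome 8 genes outside it had 37 (5.58%). The members' median log2 fold change was -0.0035, with 109 above 0 and 111 below, and that of all genes was 0.0069. In the text below, "higher" and "lower" are used of the 18 members past this threshold, which is not an adjusted test.

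**Figure D1:**
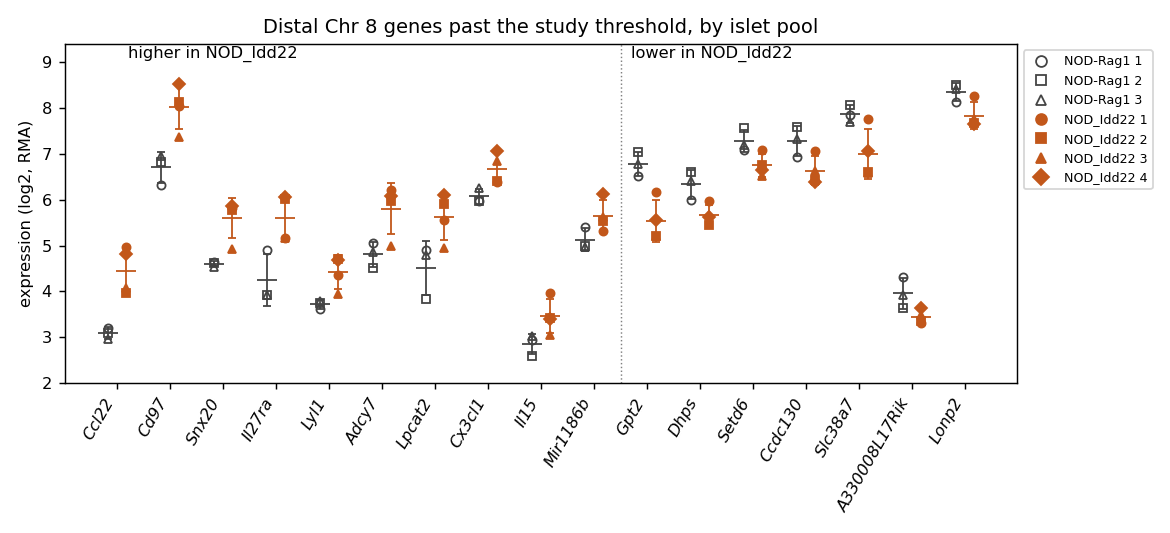
Log2 expression (RMA) of 17 members past the study's threshold, 1 symbol per islet pool, with the group mean and SD as a bar (n = 3 NOD-Rag1 pools, open, and n = 4 NOD_Idd22 pools, filled). Ccl22, Cd97, Snx20, Il27ra and Gpt2 show the widest gaps between the groups.

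The chemokine cluster held the member with the smallest p. Ccl22 (chr8:94745590-94751699), a CCR4 ligand made by dendritic cells and macrophages, was at 3.21, 3.10 and 2.96 in NOD-Rag1 replicates 1 to 3 and at 4.97, 3.96, 4.07 and 4.82 in NOD_Idd22 replicates 1 to 4. The groups did not overlap, and the lowest NOD_Idd22 pool was 0.75 above the highest NOD-Rag1 pool, the widest such gap among the members. The log2 fold change was 1.36 (SE 0.267, adjusted p = 0.161 by limma), and the exact two-sided permutation p over the 35 splits of the pools was 0.0286, the smallest they can give. Within the array sets the differences were 1.94 and 1.07. Ccl22 was among the dim members, with a mean of 3.87 over all pools, so the size of its fold is uncertain. Its neighbour Cx3cl1 (chr8:94772009-94782427), the membrane-bound chemokine fractalkine, was at 5.97, 5.98 and 6.26 against 6.38, 6.41, 6.85 and 7.06. These groups did not overlap either, by 0.12, and the log2 fold change was 0.60 (SE 0.191, adjusted p = 0.416 by limma), with 0.26 and 0.80 within the sets. It no longer passed the threshold with median centring (0.48) or without NOD-Rag1 replicate 1 (0.55), NOD-Rag1 replicate 2 (0.56) or NOD_Idd22 replicate 4 (0.48). The third gene of the cluster, Ccl17 (chr8:94810453-94812036), the other CCR4 ligand, was at 2.97, 2.37 and 2.70 against 2.87, 3.62, 2.98 and 3.26. Its NOD_Idd22 replicate 1 lay below NOD-Rag1 replicate 1, and with a log2 fold change of 0.50 and an unadjusted p of 0.0522 it did not pass.

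Since the 3 chemokine genes stand side by side, their promoters are shown here beside that of Gpt2, the lower member with the smallest p. They are RefSeq sequences of GRCm38.p6 on the plus strand, from 250 bases before to 50 bases after the annotated start, at chr8:94745434-94745733 (Ccl22), chr8:94771930-94772229 (Cx3cl1), chr8:94810203-94810502 (Ccl17) and chr8:85492326-85492625 (Gpt2). The Ccl17 window lies downstream of the first base of its RefSeq gene, 94809380, and does not include it. Capitals mark matches to any of the motifs searched on both strands, namely the TATA box spelled TATAAA, the GC box spelled GGGCGG, the box named after its letters CCAAT, the cAMP response element spelled TGACGTCA and the STAT element spelled TTCNNNGAA.
Ccl22: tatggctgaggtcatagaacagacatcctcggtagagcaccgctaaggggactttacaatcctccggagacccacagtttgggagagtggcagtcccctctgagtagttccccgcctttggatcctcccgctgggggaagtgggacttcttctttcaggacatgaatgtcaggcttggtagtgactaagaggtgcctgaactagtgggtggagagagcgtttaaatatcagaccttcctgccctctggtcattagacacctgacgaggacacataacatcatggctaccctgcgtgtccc
Cx3cl1: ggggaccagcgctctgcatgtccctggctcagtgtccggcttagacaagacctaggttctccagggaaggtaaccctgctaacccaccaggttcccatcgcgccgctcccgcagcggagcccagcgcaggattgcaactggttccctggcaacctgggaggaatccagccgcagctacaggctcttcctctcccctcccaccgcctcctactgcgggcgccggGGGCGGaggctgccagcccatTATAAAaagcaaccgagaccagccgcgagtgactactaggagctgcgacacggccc
Ccl17: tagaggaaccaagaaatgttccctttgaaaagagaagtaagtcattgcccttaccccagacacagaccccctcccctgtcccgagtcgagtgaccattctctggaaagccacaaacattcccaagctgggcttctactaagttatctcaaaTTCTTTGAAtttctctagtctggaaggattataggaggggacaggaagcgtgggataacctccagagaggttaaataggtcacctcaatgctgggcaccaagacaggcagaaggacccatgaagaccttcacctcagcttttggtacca
Gpt2: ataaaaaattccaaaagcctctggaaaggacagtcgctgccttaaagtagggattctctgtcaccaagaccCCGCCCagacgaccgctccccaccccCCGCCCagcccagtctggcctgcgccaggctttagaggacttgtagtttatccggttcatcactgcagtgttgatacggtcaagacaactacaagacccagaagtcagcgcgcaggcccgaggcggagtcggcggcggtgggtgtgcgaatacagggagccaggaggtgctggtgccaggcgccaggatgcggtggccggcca
The Ccl22 window held none of these motifs. Cx3cl1 held TATAAA just after a GGGCGG, Ccl17 held 1 TTCNNNGAA, and Gpt2 held GGGCGG as its complement in 2 places, while the chemokine windows shown shared no motif with each other. Over 32851 mouse promoters of this length, TATAAA occurred in 13.6%, GGGCGG in 35.7%, CCAAT in 37.4%, TGACGTCA in 1.79% and TTCNNNGAA in 8.3%. Of the 6 higher genes with a promoter in the table, 2 held TATAAA, 4 GGGCGG, 2 CCAAT, 0 TGACGTCA and 1 TTCNNNGAA, and of the 7 lower genes 0, 5, 2, 1 and 0 did, in the same order. A gene was counted if any of its promoters matched, while the shares are per promoter, so the 2 are not alike. Adcy7 had 3 promoters and Lonp2 had 2. These matches describe letters in a window and not binding.

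Cytokine and cytokine receptor genes outside the cluster were higher as well. Il27ra (chr8:84030286-84042589), a receptor chain for interleukin 27 on T cells and other lymphocytes, was at 4.89, 3.93 and 3.92 against 5.17, 6.02, 5.17 and 6.05. NOD-Rag1 replicate 1 was the high pool of its group, yet the groups did not overlap, and the log2 fold change was 1.36 (SE 0.342, 2.56-fold, adjusted p = 0.287 by limma), with 1.25 and 0.85 within the sets. Il15 (chr8:82331624-82403222), a cytokine needed by natural killer cells and memory CD8 T cells, was at 2.93, 2.60 and 3.02 against 3.96, 3.41, 3.05 and 3.41. The groups were separated by 0.03, NOD_Idd22 replicate 1 was the highest pool, and the log2 fold change of 0.61 (adjusted p = 0.470 by limma) fell to 0.44 without it. The call of Il15 was lost in 7 of 15 alternatives. Among them were median centring (0.49), quantile normalization (unadjusted p = 0.0628 by limma) and the methods' t-test (unadjusted p = 0.0566). Of the 7 members listed as chemokines, cytokines and their receptors, 4 were higher and 0 lower, with a median of 0.60 and all 7 above 0. Among all genes 3.94% were higher, and the role lists were written with earlier results of these data known. The other 2 were the prostaglandin receptor gene Ptger1 (log2 fold change 0.18) and the relaxin gene Rln3 (0.23).

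Genes of innate and leukocyte signalling made up most of the rest of the higher group, 5 of 12 listed members, with 0 lower and a median of 0.20. Cd97 (now Adgre5, chr8:83723251-83741326), an adhesion receptor of lymphocytes and myeloid cells, was at 6.33, 6.83 and 6.96 against 8.05, 8.13, 7.36 and 8.52. All 4 NOD_Idd22 pools were above all NOD-Rag1 pools, by 0.40 at the least, and the log2 fold change was 1.31 (SE 0.281, 2.48-fold, adjusted p = 0.205 by limma), with 1.16 and 1.67 within the sets. Gpr56, an adhesion receptor of cytotoxic lymphocytes that is also found in islets, had a log2 fold change of -0.12, and Gpr97, a neutrophil receptor, of 0.00 (SE 0.116).

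Snx20 (chr8:88626828-88636128), a sorting nexin that binds the leukocyte selectin ligand PSGL-1, was at 4.65, 4.61 and 4.54 against 5.82, 5.78, 4.94 and 5.87. NOD_Idd22 replicate 3 was the low pool of its group but still above every NOD-Rag1 pool. The log2 fold change was 1.0 (SE 0.231, adjusted p = 0.235 by limma), and without that pool it was 1.22 with an adjusted p of 0.00577. Adcy7 (chr8:88272403-88329962), an adenylate cyclase of blood cells, was at 5.05, 4.51 and 4.86 against 6.20, 5.98, 4.98 and 6.08. Its groups overlapped through the same NOD_Idd22 replicate 3, and the log2 fold change was 1.0 (SE 0.305, adjusted p = 0.390 by limma), or 1.28 with an adjusted p of 0.0345 without that pool. Without NOD-Rag1 replicate 2 it was 0.86 with an unadjusted p of 0.0544, past the fold limit but not the threshold. Cd97 was the other member to pass an adjusted p of 0.05 by limma without NOD_Idd22 replicate 3, at 1.53 and 0.0494. Over the 16 alternative fits the adjusted p ran from 0.00577 to 0.799 for Snx20, from 0.0345 to 0.975 for Adcy7 and from 0.0494 to 0.897 for Cd97. The share of all genes passing without NOD_Idd22 replicate 3 is not given, so these values are not set against the array. Lpcat2 (chr8:92855350-92919279), which makes platelet-activating factor in inflammatory cells, was at 4.90, 3.83 and 4.80 against 5.56, 5.91, 4.94 and 6.10. NOD-Rag1 replicate 2 was the low pool, and the log2 fold change was 1.12 (adjusted p = 0.416 by limma). Without that pool it was 0.77, still past the fold limit, with an unadjusted p of 0.0547.

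Several immune genes of the segment did not pass. Nod2, a sensor of bacterial cell wall fragments, was at 4.67, 4.30 and 3.99 against 4.26, 4.76, 4.64 and 4.56, with overlapping groups and a log2 fold change of 0.24. Cyld, a deubiquitinase that restrains NF-kappa B, had the same level of 7.04 in 5 of 7 pools and a log2 fold change of 0.11, and N4bp1 had 0.01. Among the transcription factors, Lyl1 (chr8:84701457-84704716), a factor of blood stem cells and B cells, was higher. Its levels were 3.61, 3.75 and 3.79 against 4.36, 4.72, 3.93 and 4.68, the groups were separated by 0.14, and the log2 fold change was 0.70 (SE 0.196, adjusted p = 0.341 by limma). Of the 19 members on the 2 immune lists, 9 were higher and 0 lower, beside 3.94% and 2.18% of all genes. Their median was 0.50, and 17 were above 0, beside 13339 of 25793 among all genes. These lists were written with earlier results of these data known, so the counts describe the members and are not independent support for an immune theme. With each array centred on its median 7 of the 19 were higher and 14 were above 0. With quantile normalization 8 were higher and 17 above 0, and none was lower in either setting. Without NOD-Rag1 replicate 2 the count of higher members was 5.

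The higher members moved between NOD_Idd22 pools in a shared way. In 7 of the 11 higher members replicate 3 was the lowest NOD_Idd22 pool, and Il27ra had the same level in replicates 1 and 3. Over all 220 members replicate 3 was the lowest in 49. The same pool had the lowest summed level of T cell markers (9.65), of B cell markers (11.32) and of macrophage and dendritic cell markers (9.16) in its group, but the highest endothelial sum (10.95). Ccl22 was different, with its lowest level in replicate 2, and Cx3cl1 had its lowest in replicate 1, whose endothelial sum was the lowest of the 4 at 10.17. The part of these cells in the differences was not tested.

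**Figure D2:**
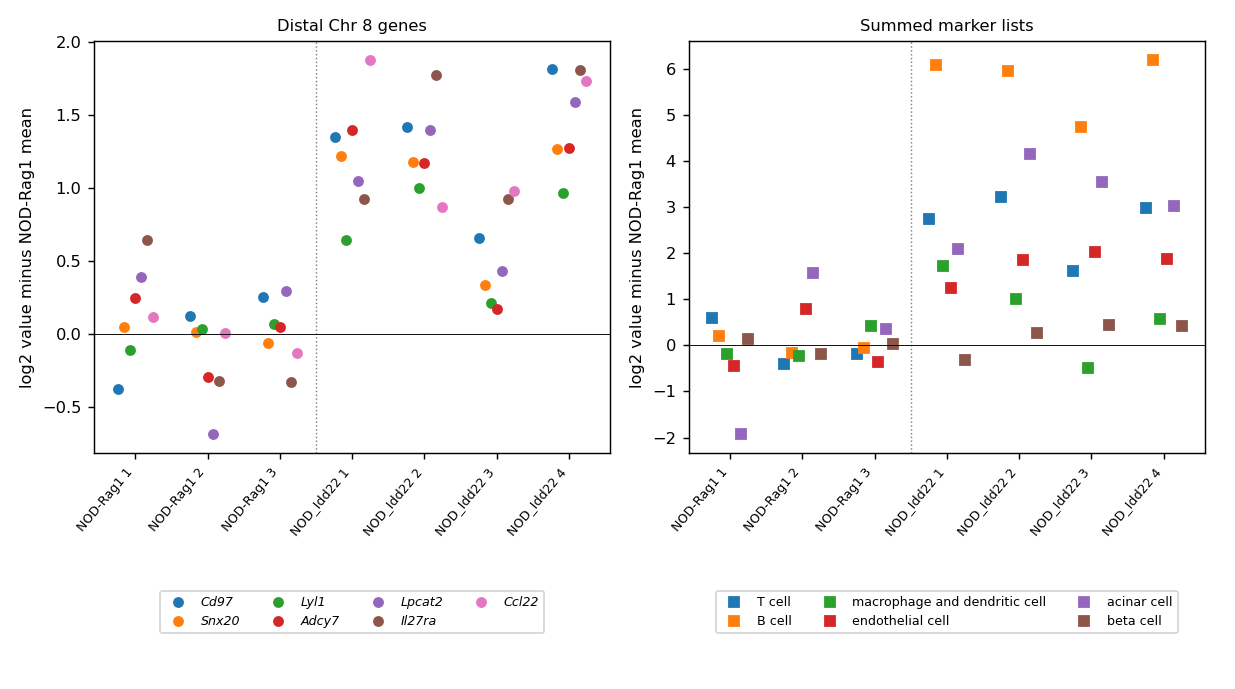
Each islet pool's log2 level minus the NOD-Rag1 mean, for 7 of the higher members (left) and for the summed levels of 6 cell type marker lists (right). NOD_Idd22 replicate 3 is low for most of the genes at left and for T cell, B cell and macrophage markers at right, while beta cell markers stay within 0.5 of 0 in every pool.

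Metabolic enzymes provided the lowest member. Gpt2 (chr8:85492576-85527560), the mitochondrial alanine aminotransferase that interconverts alanine and glutamate with pyruvate and 2-oxoglutarate, was at 6.52, 7.03 and 6.78 against 6.17, 5.21, 5.20 and 5.57. Every NOD_Idd22 pool was below every NOD-Rag1 pool, by 0.36 at the least, and NOD_Idd22 replicate 1 stood closest to the other group. The log2 fold change was -1.24 (SE 0.256, 2.37-fold lower, adjusted p = 0.181 by limma, exact permutation p = 0.0571), with -0.74 and -1.20 within the sets. Without NOD_Idd22 replicate 1 it was -1.45 with an adjusted p of 0.0408. Over the 16 alternative fits its adjusted p ran from 0.0408 to 0.926, and the share of all genes passing without that pool is not given. Of the 21 listed mitochondrial and metabolic enzymes, 2 were lower and 0 higher, with a median of -0.03. The other was Lonp2, a protease of peroxisomes, at 8.13, 8.51 and 8.43 against 8.27, 7.66, 7.77 and 7.65, whose groups overlapped through NOD_Idd22 replicate 1 (log2 fold change -0.52, adjusted p = 0.461 by limma). Got2, the mitochondrial aspartate aminotransferase, was at 9.80, 10.34 and 10.12 against 10.21, 9.18, 9.93 and 9.80 and did not pass (-0.31). Ucp1, the uncoupling protein of brown fat, had a log2 fold change of 0.01, and the lipid enzyme gene Tecr and the glycogen phosphorylase kinase subunit gene Phkb had -0.23 and -0.03.

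There were 5 other lower members, on different role lists or on none. Dhps (chr8:85071757-85075162), the first enzyme in making the hypusine of the translation factor eIF5A, was at 5.99, 6.61 and 6.41 against 5.97, 5.45, 5.66 and 5.62. The groups were separated by 0.02 only, with NOD-Rag1 replicate 1 and NOD_Idd22 replicate 1 next to each other, and the log2 fold change was -0.66 (SE 0.181, adjusted p = 0.329 by limma). Slc38a7 (chr8:95835920-95853539), a glutamine transporter of lysosomes, was at 7.86, 8.07 and 7.69 against 7.76, 6.60, 6.59 and 7.06. NOD_Idd22 replicate 1 lay within the NOD-Rag1 range, the log2 fold change was -0.87 (SE 0.289, adjusted p = 0.437 by limma), and the difference was -0.13 within one array set and -1.11 within the other. Setd6 (chr8:95715913-95719010), a lysine methyltransferase, was at 7.09, 7.56 and 7.20 against 7.09, 6.75, 6.51 and 6.65. Replicate 1 of both groups had the same level, and the log2 fold change was -0.53 (adjusted p = 0.422 by limma). Ccdc130 (chr8:84257795-84270380), a coiled-coil gene, was at 6.93, 7.59 and 7.33 against 7.07, 6.42, 6.63 and 6.38, again with NOD_Idd22 replicate 1 inside the NOD-Rag1 range (-0.65, adjusted p = 0.435 by limma). The RIKEN gene A330008L17Rik (chr8:99416642-99733438) was at 4.32, 3.63 and 3.92 against 3.30, 3.36, 3.49 and 3.63, with a tie between NOD-Rag1 replicate 2 and NOD_Idd22 replicate 4 (-0.51, adjusted p = 0.442 by limma). In 6 of the 7 lower members replicate 1 was the highest NOD_Idd22 pool, as it was in 66 of all 220 members. That pool had the lowest acinar (12.70) and beta cell (13.13) sums of its group and the highest macrophage and dendritic cell (11.36) and fibroblast and stellate cell (11.70) sums. Its summed level of 6 duct cell markers was 10.05 against 9.17 to 9.4 in the rest of its group, and the NOD-Rag1 pools were at 9.47, 10.003 and 9.60. It also shared an array set with NOD-Rag1 replicates 2 and 3, and the part of any of these was not tested. With the array set as a block, Dhps (-0.47), Setd6 (-0.38), Ccdc130 (-0.42) and Lonp2 (-0.32) no longer passed the fold limit. Leaving out NOD_Idd22 replicate 1 gave 14 lower and 12 higher members, and leaving out NOD-Rag1 replicate 2 gave only 3 lower and 6 higher. The share of all genes past the threshold in these fits is not given.

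**Figure D3:**
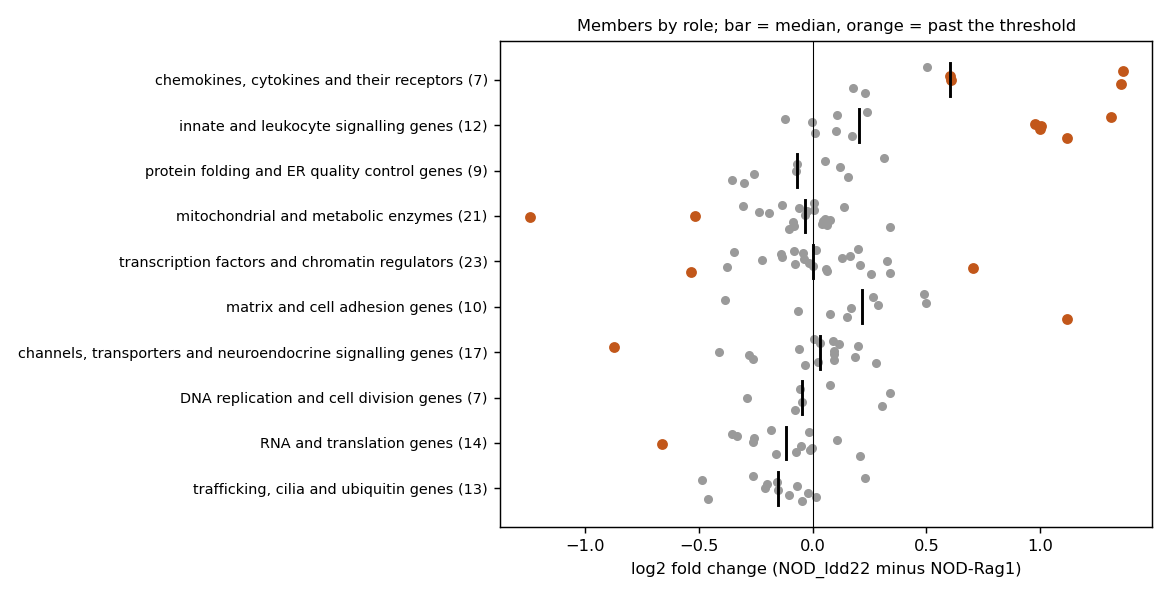
Log2 fold change (NOD_Idd22 minus NOD-Rag1) of the members on each of 10 role lists, 1 point per gene, with the number measured in brackets, the median as a bar and members past the study's threshold in orange. The 2 immune lists hold 9 orange points, all to the right, and no other list holds more than 2. The lists were written with earlier results of these data known.

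Housekeeping lists held few members past the threshold. RNA and translation genes had a median of -0.12 with 2 of 14 above 0, and Dhps was the only one past it. The ribosome recycling factor gene Abce1, the RNA polymerase II subunit gene Polr2c, the import receptor gene Tnpo2 and Cnot1, the scaffold of a deadenylase, had -0.18, -0.26, -0.01 and 0.11. Trmt1, a tRNA methyltransferase, did not pass at -0.35, although its groups did not overlap (6.58, 6.73 and 6.50 against 6.46, 6.0, 6.36 and 6.17). Trafficking, cilia and ubiquitin genes had a median of -0.15 with 2 of 13 above 0 and 0 past the threshold. Hook2, which links cargo to microtubule motors, was at 6.36, 6.75 and 6.32 against 6.19, 5.85, 6.21 and 5.71, without overlap (-0.49), and Aktip, whose product binds Hook proteins, was at 7.74, 7.98 and 7.74 against 7.70, 7.48, 7.70 and 7.56, without overlap (-0.21). Vps35, the core of the retromer complex, was at 9.74, 9.97 and 9.97 against 9.74, 9.52, 9.52 and 9.74, with a tie between the groups (-0.26). Otud4, a deubiquitinase, Itfg1 and Arl2bp, a cilium protein gene, had -0.02, -0.05 and -0.16. Centring each array on its median lowers every difference by 0.12, which takes these 2 medians to -0.24 and -0.27. With the array set as a block they were -0.03 (6 of 14 above 0) and -0.10, with quantile normalization -0.08 and -0.11, and without NOD-Rag1 replicate 2 -0.05 (6 of 14 above 0) and -0.11.

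Protein folding genes stayed near the level of NOD-Rag1, with 0 of 9 past the threshold. Calr, the calcium-binding chaperone of the endoplasmic reticulum, was at 10.84, 11.10 and 10.96 against 10.92, 10.96, 11.06 and 11.13 (log2 fold change 0.05, SE 0.0985). Herpud1, induced by endoplasmic reticulum stress, had -0.07 (SE 0.105), and Asna1, which inserts tail-anchored proteins, had -0.26. Among channel, transporter and neuroendocrine genes, Slc38a7 was the only one of 17 past the threshold. Gnao1, the G protein subunit alpha o that restrains insulin secretion, was at 10.09, 10.11 and 10.11 against 10.15, 10.11, 10.28 and 10.23 (0.09), the calcium channel gene Cacna1a had 0.01, and Prkaca, a catalytic subunit of protein kinase A, had 0.03. DNA replication and cell division genes had 0 of 7 past the threshold, with log2 fold changes of 0.08 for Orc6, part of the origin recognition complex, 0.30 for the kinesin gene Kifc3 and -0.29 for Syce2, a meiotic protein gene. The list of transcription factors and chromatin regulators had Lyl1 higher and Setd6 lower among 23, with a median of 0.0003. Tox3, a chromatin protein, was at 9.83, 9.37 and 9.61 against 8.84, 9.09, 9.65 and 9.45 and did not pass (-0.35), although it did with the array set as a block (-0.53, unadjusted p = 0.0182 by limma). The chromatin remodeller Chd9, the pocket protein gene Rbl2 and the repressor gene Nacc1 had -0.04, -0.14 and -0.38.

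The microRNA probe sets of the segment numbered 8. Of these, 7 lie at RefSeq microRNA genes and cover hairpin or primary transcripts rather than mature microRNA, while Mir1186b matched no RefSeq gene. Mir1186b was at 5.41, 5.0 and 4.98 against 5.33, 5.53, 5.63 and 6.13 and was higher past the threshold (log2 fold change 0.52, adjusted p = 0.50 by limma), with groups that overlapped. This call was lost in 10 of 16 alternatives, among them median centring (0.40), quantile normalization (0.45) and the array set as a block (0.35). Mir138-2 was at 3.70, 3.65 and 3.89 against 3.46, 3.38, 3.10 and 3.29, lower in every NOD_Idd22 pool by 0.19 at the least, but its log2 fold change of -0.44 (SE 0.115, adjusted p = 0.307 by limma) was under the threshold. Mir181d, in a cluster with Mir181c, was at 7.67, 6.09 and 6.65 against 6.98, 7.98, 7.30 and 8.15, a log2 fold change of 0.80 (SE 0.427) with overlapping groups. Mir181c was at 4.73, 4.88 and 4.88 against 4.56, 5.22, 4.21 and 5.08 (-0.06). The mature RefSeq sequences of these 3 are shown to compare their seeds, the bases 2 to 8 that pair with targets, which are in capitals.
mmu-miR-181c-5p: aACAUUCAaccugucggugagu
mmu-miR-181d-5p: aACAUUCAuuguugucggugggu
mmu-miR-138-5p: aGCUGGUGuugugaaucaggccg
The 2 members of the miR-181 family have the same seed, ACAUUCA, and differ beyond it, whereas miR-138 has GCUGGUG. The rest of the microRNA probe sets (Mir23a, Mir27a, Mir24-2 and Mir709) had log2 fold changes of 0.18, -0.11, -0.01 and -0.05. Mir24-2 had the level of 1.75 in 5 of 7 pools.

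The list of matrix and adhesion genes had a median of 0.22 with 8 of 10 above 0, and Lpcat2, which it shares with the leukocyte list, was the only member past the threshold. Cdh11 and Mmp2 varied widely between the pools of a group. Cdh11, a cadherin of mesenchymal cells, was at 5.37, 5.35 and 5.62 against 8.10, 4.90, 4.99 and 5.77, so that 1 NOD_Idd22 pool stood above all others. Its SD over NOD_Idd22 pools was 1.49, the highest of the members, and its log2 fold change of 0.50 turned to -0.22 without that pool. Mmp2, a gelatinase of stromal cells, was at 6.28, 4.05 and 5.57 against 6.79, 5.79, 5.07 and 5.53 (0.49), with the low pool in NOD-Rag1. The same pools were the highest and lowest of all for the summed fibroblast and stellate cell markers, at 11.70 in NOD_Idd22 replicate 1 and 9.74 in NOD-Rag1 replicate 2, and the part of these cells was not tested. Cpne2, a copine of membrane traffic, was at 5.91, 6.10 and 6.11 against 7.17, 5.73, 5.89 and 6.48 (0.28). The membrane-bound metalloproteinase gene Mmp15 had 0.26 and the cadherin gene Cdh8 had -0.38. The median SD of the 220 members was 0.144 within NOD-Rag1 and 0.196 within NOD_Idd22.

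**Figure D4:**
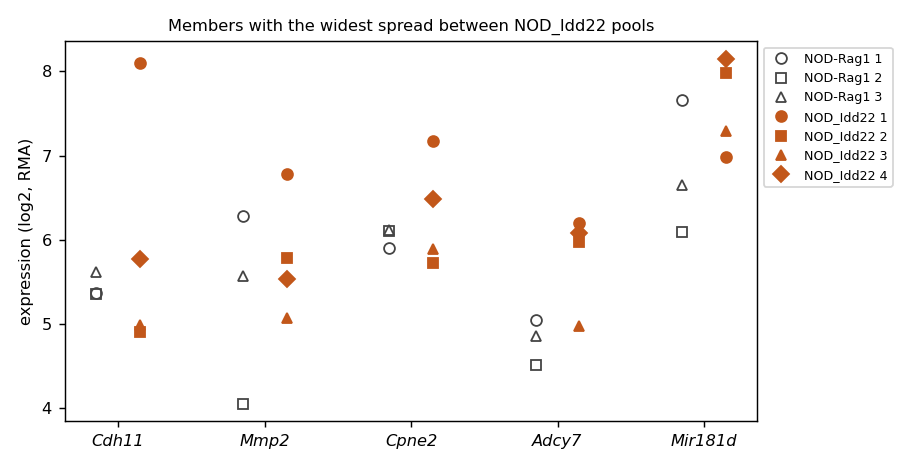
Log2 expression (RMA) by pool of the 5 members with the widest spread between NOD_Idd22 pools. Cdh11 is at 8.10 in NOD_Idd22 replicate 1 and between 4.90 and 5.77 in every other pool.

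Groups that did not overlap were counted without a test. There were 12 members with every NOD_Idd22 pool above every NOD-Rag1 pool, 5.45% against 4.55% of all genes, and 6 the other way, 2.73% against 3.34%. This balance depended on the scaling. With each array centred on its median 6 members were higher and 18 lower (2.73% and 8.18%, against 2.97% and 9.3% of all genes), and with quantile normalization 8 and 25 (3.64% and 11.4%, against 4.14% and 9.41%). Of the 18 members past the threshold, 9 of 11 higher and 2 of 7 lower did not overlap in the values as deposited. Equal values count as overlap here, and 104 members (47.3%) had a value shared by at least 2 pools to 5 decimals, as did 52.5% of all annotated probe sets. The 147 members with a mean of at least 4 held 15 of the 18, and the 73 dimmer members held Ccl22, Il15 and A330008L17Rik.

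Position along the segment was examined because a marker, D8Mit268, bounds a shorter congenic line of the study. The 128 members before it had 9 past the threshold (7.03%), 5 higher and 4 lower, and the 92 after it had 9 (9.78%), 6 higher and 3 lower. The median log2 fold change was 0.0046 before it and -0.0289 after it. Higher members were spread from Il15, at place 22 in gene order, to Mir1186b, at 214, and lower members from Ccdc130, at 67, to A330008L17Rik, at 218. The bounds and the marker's position were applied to positions of a later genome build without conversion. Genes near the ends or near the marker may therefore be assigned differently, and the counts on either side of it may change. Adcy7, a higher member, was the last before the marker as placed. Just inside the bounds as applied, Ttc29 and Gm8730 had log2 fold changes of -0.03 and -0.23. Just outside, Ednra, an endothelin receptor gene, had -0.62, and Cdh5, the cadherin of endothelial junctions, had 1.77.

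**Figure D5:**
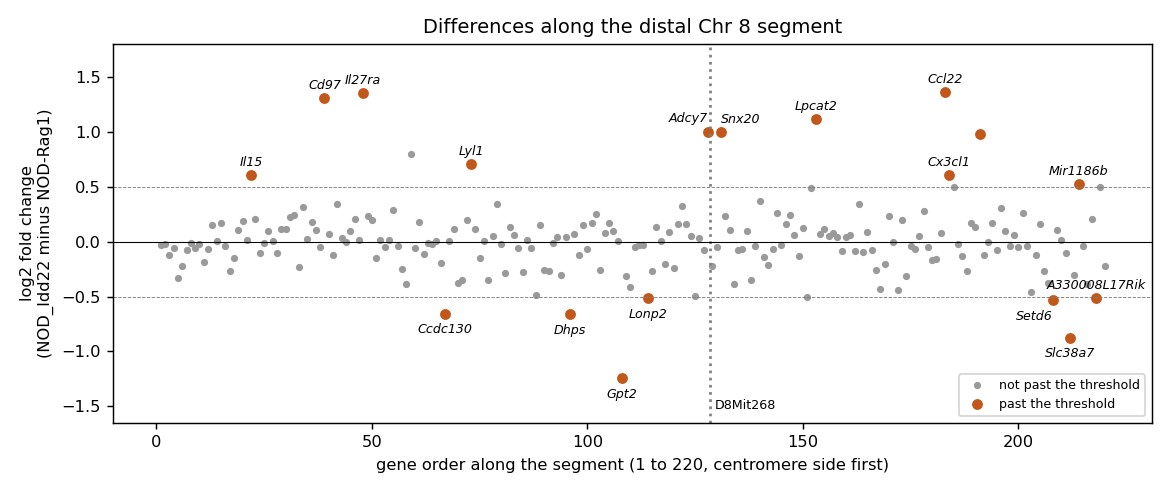
Log2 fold change (NOD_Idd22 minus NOD-Rag1) of the 220 members in gene order from the centromere side, with the study's fold limit of 0.5 as dashed lines and the marker D8Mit268 dotted. The 18 members past the threshold (orange) lie on both sides of the marker, 9 on each. The marker was placed without conversion between genome builds, so this split may change.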

How the data were processed

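The deposited values are log2 expression values that the authors made with RMA, named in the submitters' processing notes without a version, from Mouse Gene 2.0 ST arrays of 7 islet pools. A deposited comparison table gave symbols and positions, and its columns of the authors' log2 fold changes and p-values were not used. The bounds of the segment and the position of D8Mit268 come from NCBI build 37 and were applied to GRCm38 positions without conversion. Of the members, 207 matched RefSeq, 206 of them at an overlapping position. A linear model was fitted by limma 3.58.1 (R 4.3.3, moderated with eBayes, without a block or a filter on dim probe sets) to 34351 annotated probe sets, and 121 without annotation were left out. Single genes also had an exact two-sided permutation over 35 splits. Summaries and plots were made in Python 3.11.15 with pandas 2.3.3 and matplotlib 3.10.9. The fit was tested on simulated data. Pools are separate samples of 2 mice each, and their number limits the precision. For 5 symbols with 2 probe sets the brighter was used.

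The members, gene lists and tests were chosen with earlier results of these data known. Genes named were members past the study's threshold, the 5 higher and 5 lower with the widest gap between groups, up to 4 of the brightest on each role list and the 5 with the largest SD over NOD_Idd22 pools, of which 4 are not reported here by name and remain in the counts. Ccl17, Nod2, Cyld, Gpr97, Ucp1 and the microRNAs Mir181c, Mir23a, Mir27a, Mir24-2 and Mir709 were named after their values were seen, and Ttc29 and Gm8730 as the first and last members. Alternatives were median centring, quantile normalization, a filter at a mean of 4, a trend and robust fit, the methods' t-test, a replicate block, an array set block, leaving out each pool, probe set choices, the excluded genes added back and a limit of p of 0.01. Counts of groups without overlap under other scalings and pools were added after seeing the data.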

Additional observations from a re-analysis of the deposited data

Results flagged for a closer look

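In each of the 55 named members, the 4 NOD_Idd22 pools were examined for a value far from the other 3 by Dixon's criterion. Chance flags about 1 in 20 groups, and 5 members were found. Snx20 was 4.94 in replicate 3, against 5.78 to 5.87 in the others, and this was the only one of the 5 past the study's threshold. Replicate 4 stood apart for Cnot1, at 9.64 against 9.36 to 9.39, for Otud4, at 8.68 against 8.36 to 8.40, and for Rbl2, at 7.74 against 7.91 to 7.94. Replicate 2 stood apart for Itfg1, at 9.29 against 9.44 to 9.46. The cause was not tested.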

How the results depend on the processing

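With 3 and 4 pools, 2 array sets and 1 pool with the sex-linked RNA of males, precision is limited, and the 73 members with a mean under 4 are dim. Of the 17 named members past the study's threshold, 6 (Ccl22, Cd97, Gpt2, Il27ra, Lyl1 and Snx20) kept it under each of the alternatives that could be run for them, and none of the 17 changed sign. The count of 18 members past it became 8 at an unadjusted p of 0.01, 16 by the methods' t-test, 17 under quantile normalization and 22 under median centring, where 14 members were lower instead of 7. With the replicate number as a block it was 10, with 7 higher and 3 lower. Only NOD_Idd22 has a replicate 4, so this block takes up that pool. Its log2 fold changes equal those without NOD_Idd22 replicate 4, and it is not a separate check of them. The same-numbered pools did not deviate together (correlations of -0.38, -0.14 and -0.11), so the numbers were not taken as pairs. With the array set as a block it was 14, of which 4 were lower. None of these counts, nor those without single pools below, has the share of all genes in the same setting beside it. They are therefore not read as particular to the segment.

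Without single pools, each in turn, the count ranged from 9 (NOD-Rag1 replicate 2) to 26 (NOD_Idd22 replicate 1), with 6 to 12 higher and 3 to 14 lower. The count at an adjusted p of 0.05 ranged from 0 to 3, with Gpt2 passing without NOD_Idd22 replicate 1 and Adcy7, Cd97 and Snx20 without replicate 3. The share of all genes at that limit, 0.151% in the main fit, is not given for these fits. Members with groups that do not overlap numbered 18 (8.18%, against 7.89% of all genes), with 12 higher and 6 lower, but 24 under median centring (6 higher, 18 lower, 10.9% against 12.3%) and 33 under quantile normalization (8 higher, 25 lower, 15% against 13.6%). Without single pools they numbered 21 to 57, with 57 without NOD-Rag1 replicate 1 (25.9% against 24.4%) and 45 without NOD_Idd22 replicate 1 (20.5% against 19.9%). The members' median log2 fold change moved from -0.0035 to -0.1234 under median centring, which moves the median of all probe sets from 0.0216 to -0.0984, to -0.0329 under quantile normalization and to -0.0443 over members with a mean of at least 4.

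Some named members that were not past the threshold changed the sign of a small log2 fold change, and the cause was not tested. Under median centring these were Cacna1a (-0.1148), Calr (-0.0655), Cnot1 (-0.0124), Gnao1 (-0.0311), N4bp1 (-0.1113), Orc6 (-0.0443) and Prkaca (-0.0883). Under quantile normalization they were Chd9 (0.0142), Otud4 (0.0451), Phkb (0.0149) and Tnpo2 (0.0472). With the replicate block they were N4bp1 (-0.049) and Prkaca (-0.0356), and Prkaca was -0.0183 as a mean over its probe sets. Without single pools the ranges were -0.0604 to 0.0652 for Cacna1a, -0.0073 to 0.1204 for Calr, -0.2242 to 0.8422 for Cdh11, -0.0078 to 0.4748 for Cpne2, -0.1329 to 0.9794 for Mmp2, -0.049 to 0.0631 for N4bp1, -0.0965 to 0.0118 for Otud4, -0.0973 to 0.062 for Phkb, -0.0701 to 0.0987 for Prkaca and -0.0744 to 0.0754 for Tnpo2.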
